A study of Mus musculus with 2 samples.

Results

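The set described here is made up of 10 genes: the enzymes that turn citrate into fatty acids and triglycerides (Acly, Me1, Acaca, Acacb, Fasn, Gpam and Dgat2), the transcription factors that drive their genes (Srebf1 and Mlxipl), and Thrsp, a small lipogenic protein. The members were picked by gene symbol for their place in the pathway, with earlier results of these data known. All 10 were found among the 14339 named genes of the expression table. Poly-A RNA was measured in primary hepatocytes, parenchymal cells isolated from mouse liver and grown in culture, after transfection with small interfering RNA (siRNA) to ClpP, which forms the proteolytic core of ClpXP in the mitochondrial matrix, or to green fluorescent protein (GFP), a target that mouse cells lack. Each group is 1 library, so no value has a replicate, no test was possible, and every difference is one between 2 libraries. Strain, age, donor number, siRNA dose and harvest time of the cells are not stated in the labels.

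In liver, cytosolic citrate is cleaved to acetyl-CoA, which acetyl-CoA carboxylase converts to malonyl-CoA and fatty acid synthase extends to palmitate at the cost of NADPH. The pathway is known for its response to feeding: insulin acts largely through SREBP-1c, a product of Srebf1, and glucose through ChREBP, the product of Mlxipl. Thrsp, also called Spot 14, was found as a thyroid hormone responsive gene of rat liver and responds to carbohydrate as well. The protein pairs with its paralog Mid1ip1, which binds acetyl-CoA carboxylase and promotes its polymerization. RNA levels do not show what the pairing does to the carboxylase.

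Thrsp and Fasn had the highest and the lowest difference of the set, and the sequences just before their transcription starts are shown for that reason. They come from the RefSeq promoter windows (GRCm38.p6), both genes lie on the minus strand, and the 250 bases before the start are given from 5′ to 3′, with matches to CCAAT or its complement ATTGG in capitals.
Thrsp, chr7:97417551-97417800: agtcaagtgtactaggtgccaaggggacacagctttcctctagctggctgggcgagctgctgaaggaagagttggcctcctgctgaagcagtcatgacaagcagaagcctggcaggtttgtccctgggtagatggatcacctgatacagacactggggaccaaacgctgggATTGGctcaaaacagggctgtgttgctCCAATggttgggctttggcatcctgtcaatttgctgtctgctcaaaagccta
Fasn, chr11:120824548-120824797: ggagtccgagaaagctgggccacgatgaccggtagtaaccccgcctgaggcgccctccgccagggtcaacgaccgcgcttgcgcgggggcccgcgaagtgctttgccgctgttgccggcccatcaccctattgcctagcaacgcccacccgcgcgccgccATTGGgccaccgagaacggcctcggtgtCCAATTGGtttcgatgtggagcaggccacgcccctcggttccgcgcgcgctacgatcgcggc

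CCAAT, the core of the box bound by NF-Y, matched at -79 (as ATTGG) and -52 in Thrsp, and at -90 (as ATTGG), -62 and -59 (as ATTGG) in Fasn, where the last pair overlaps. In both genes the first match on the opposite strand was followed by one on the gene's own strand, 27 bases further on in Thrsp and 28 in Fasn. The share of all windows with this arrangement was not counted, so whether it is unusual is unknown. At least 2 matches on either strand occurred in 11.7% of all 32851 windows of 300 bases (250 before to 50 after a start), and at least 3 in 3.37%. Windows were matched for 9 of the members (all but Dgat2), 14 windows in all, and only windows on the gene's own chromosome were kept. CCAAT occurred in 9 of these windows, from 8 members, against 37.4% of all windows. In Acly the match lies past the start, at 38. Several windows of 1 gene are not independent, and no enrichment was tested. The E-box CACGTG, a part of the paired element that ChREBP binds, matched in 1 member window, at -98 in Mlxipl itself, against 7.15% of all windows. AGGTCA, the nuclear receptor half-site, matched in 3 member windows (Acacb, Acly and Gpam), against 16.3% of all windows. GGGCGG, the Sp1 box, matched in 6, against 35.7%. The sterol element TCACCCCAC matched in 0 member windows (0.551% of all windows) and the interferon-type repeat, GAAA and GAAA with any 2 bases between, in 0 (3.44%). Both strands were searched for all 6 motifs, and a match describes the letters in the window only. The bases past the start were not found in an annotated transcript for 1 window of Gpam and 1 of Srebf1. The Gpam window holds its AGGTCA match, and both windows hold GGGCGG.

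Thrsp had 86.8 FPKM (fragment counts divided by transcript length and by the library's mapped fragments) with ClpP siRNA and 7.07 FPKM with GFP siRNA, a ratio of 12.3 between the FPKM values. On the scale used for every gene here, log2(FPKM + 1) with ClpP siRNA minus log2(FPKM + 1) with GFP siRNA, called the log2 ratio, its difference was 3.44. The authors' deposited table gives Thrsp a fold change of 10.5. Of the 11087 genes with a mean FPKM of at least 1, Thrsp ranked 44 from the highest log2 ratio. It was the 1 member at least 2-fold higher (log2 ratio of at least 1), and 0 members were at least 2-fold lower. Over all 11087 genes, 5.19% were at least 2-fold higher and 2.04% at least 2-fold lower, so 1 of 10 members is near the background share. At 1.5-fold, 2 members were higher, Thrsp and Acacb, and 0 were lower, beside 9.97% and 6.79% of all genes.

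The log2 ratios of the other 9 members ran from -0.50 (Fasn) to 0.85 (Acacb), with a median of -0.02, beside -0.01 for all genes. Over the 10 members the median was 0.02, with 5 above 0 and 5 below. The summed FPKM of the 9 members without Thrsp was 265.6 with ClpP siRNA and 273.1 with GFP siRNA, whereas with Thrsp included it was 352.4 with ClpP siRNA and 280.2 with GFP siRNA. A log2 ratio of less than 0.3 in size was found for 7 of the 10 members and for 58.8% of all genes. In bulk RNA, fewer cells of a type and less RNA per cell cannot be told apart.

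**Figure D1:**
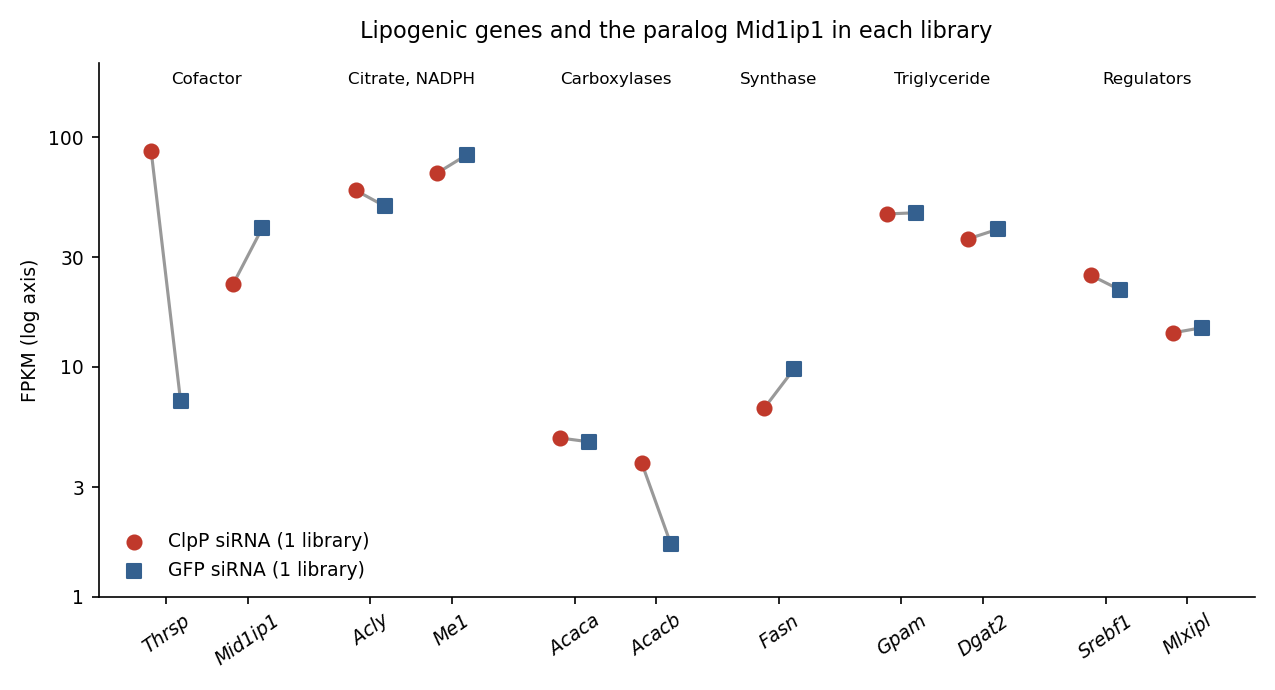
FPKM (log axis) of the 10 lipogenic genes and of Mid1ip1, grouped by role, with the ClpP siRNA library as a circle and the GFP siRNA library as a square; each point is 1 library and there are no error bars. Thrsp is close to Me1 with ClpP siRNA (86.8 FPKM) and close to Fasn with GFP siRNA (7.07 FPKM), while Mid1ip1 differs in the opposite sense, at 22.9 FPKM with ClpP siRNA and 40.3 FPKM with GFP siRNA.

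FPKM is scaled to transcript length, so levels can be ordered across genes within a library. With ClpP siRNA the order from the highest was Thrsp, Me1, Acly, Gpam, Dgat2, Srebf1, Mlxipl, Fasn, Acaca and Acacb. With GFP siRNA Thrsp stood at place 8, between Fasn and Acaca, and the other 9 members kept that same order. Without replicates, it cannot be said which neighbours in this order differ beyond their spread. Thrsp FPKM was 13.1 times Fasn FPKM with ClpP siRNA and 0.726 times with GFP siRNA. The same quotient with Me1, the highest other member, was 1.24 with ClpP siRNA and 0.0844 with GFP siRNA.

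As a description of scatter, each gene was set beside the 500 genes nearest to it in mean FPKM, and the range from the 16th to the 84th percentile of those genes is termed the local spread. It mixes technical scatter with real differences and is no test. Thrsp, Acacb and Fasn lay outside it and the other 7 members inside it, a share near the 32.4% of all genes that lay outside their own local spread. For Thrsp the local spread was -0.28 to 0.39.

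**Figure D2:**
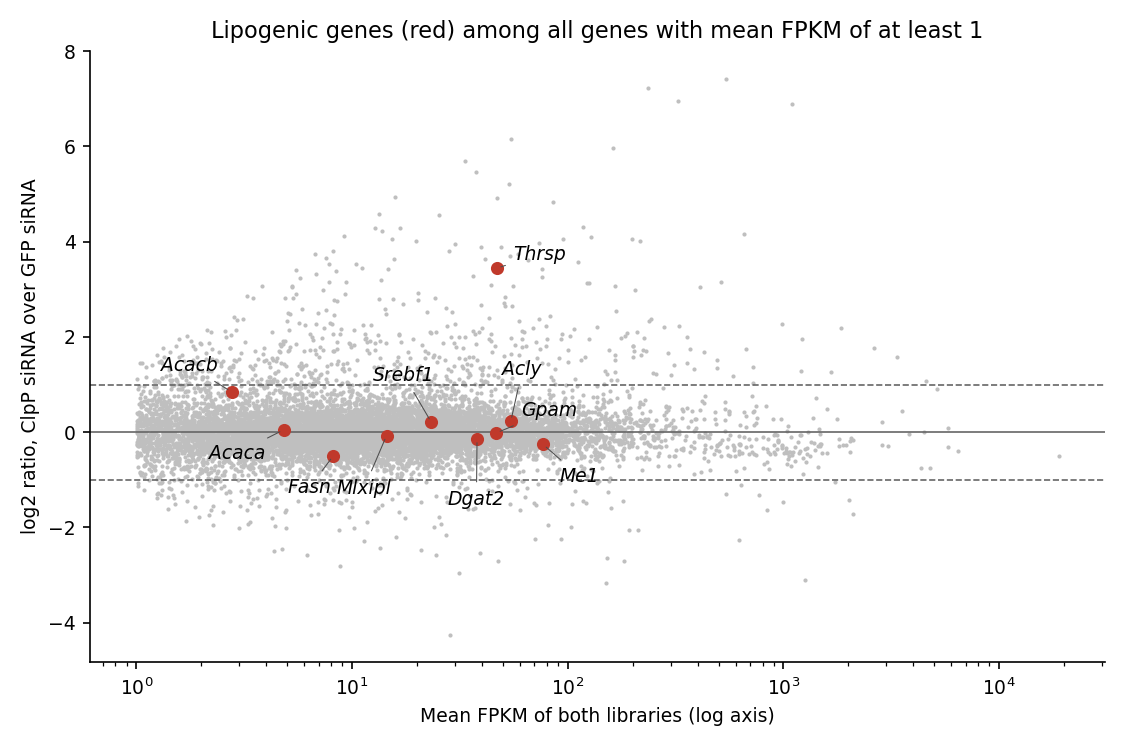
Log2 ratio (ClpP siRNA over GFP siRNA) against the mean FPKM of both libraries (log axis) for the 11087 genes with a mean of at least 1, with the 10 lipogenic genes in red and dashed lines at 2-fold. Thrsp, at 3.44, lies far above the dashed line, while the other 9 genes lie between -0.50 and 0.85.

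Mid1ip1, the paralog and partner of Thrsp, had 22.9 FPKM with ClpP siRNA and 40.3 FPKM with GFP siRNA, a log2 ratio of -0.79 that was below its local spread of -0.31 to 0.37 but short of 2-fold. Thus the more abundant of the pair was Thrsp with ClpP siRNA, at 3.79 times Mid1ip1 FPKM, and Mid1ip1 with GFP siRNA, at 5.70 times Thrsp FPKM. Their summed FPKM was 109.6 with ClpP siRNA and 47.4 with GFP siRNA.

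Acly, ATP citrate lyase, which makes cytosolic acetyl-CoA, had 58.8 FPKM with ClpP siRNA and 50.1 FPKM with GFP siRNA, a log2 ratio of 0.23. Me1, cytosolic malic enzyme, which makes NADPH, had 69.9 FPKM with ClpP siRNA and 83.8 FPKM with GFP siRNA, a log2 ratio of -0.26. Both lay inside their local spreads, and the sign of each held under every scaling and pseudocount tried.

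The acetyl-CoA carboxylases differed from each other. Acaca, the cytosolic form that makes malonyl-CoA for synthesis, had 4.91 FPKM with ClpP siRNA and 4.72 FPKM with GFP siRNA, a log2 ratio of 0.05 whose sign turned under 1 of the scalings tried. Acacb, the form at the outer mitochondrial membrane whose malonyl-CoA restrains fatty acid import for oxidation, had 3.83 FPKM with ClpP siRNA and 1.69 FPKM with GFP siRNA. Its log2 ratio was 0.85, above its local spread of -0.38 to 0.45. The FPKM values themselves stood in a ratio of 2.27, and with a pseudocount of 0.1 in place of 1 the log2 ratio was 1.14, past 2-fold. Acaca FPKM was 1.28 times Acacb FPKM with ClpP siRNA and 2.79 times with GFP siRNA. Both are low in these cells, and Acaca overlaps Tada2a in the annotation, so part of its reads is less certain.

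Fasn, fatty acid synthase, had 6.61 FPKM with ClpP siRNA and 9.75 FPKM with GFP siRNA, the lowest log2 ratio of the set at -0.50. This was below its local spread of -0.37 to 0.35, short of 2-fold, and negative under every scaling and pseudocount tried, from -0.57 to -0.35. Acly FPKM was 8.90 times Fasn FPKM with ClpP siRNA and 5.14 times with GFP siRNA.

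The enzymes of triglyceride assembly were nearly level between the libraries. Gpam, the mitochondrial glycerol-3-phosphate acyltransferase that starts glycerolipid synthesis, had 46.4 FPKM with ClpP siRNA and 46.9 FPKM with GFP siRNA (log2 ratio -0.02). Dgat2, which adds the last acyl chain to make triglyceride, had 36.1 FPKM with ClpP siRNA and 39.8 FPKM with GFP siRNA (log2 ratio -0.13). Both lay inside their local spreads.

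Neither transcription factor gene differed by much in RNA. Srebf1 had 25.0 FPKM with ClpP siRNA and 21.6 FPKM with GFP siRNA (log2 ratio 0.20). The table holds 1 value per gene, so the SREBP-1a and SREBP-1c transcripts of Srebf1 cannot be told apart, and Srebf1 also overlaps Rai1 in the annotation. Mlxipl had 14.1 FPKM with ClpP siRNA and 14.8 FPKM with GFP siRNA (log2 ratio -0.07). RNA level says nothing of the cleavage of SREBP-1 or the glucose-dependent activity of ChREBP.

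**Figure D3:**
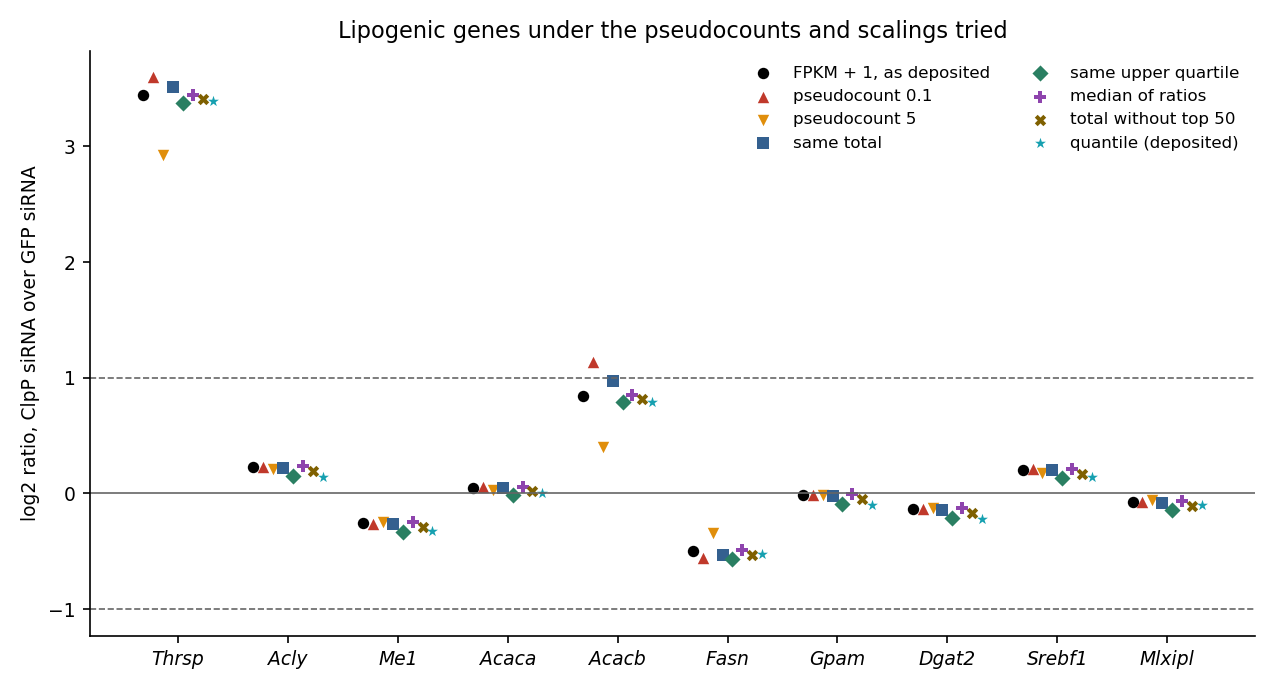
Log2 ratio (ClpP siRNA over GFP siRNA) of each lipogenic gene as reported (black circle), with 2 other pseudocounts and with 5 other scalings, and dashed lines at 2-fold. Thrsp stays between 2.93 and 3.60, Acacb crosses the dashed line with a pseudocount of 0.1 (1.14), and the other genes stay within 2-fold.

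Genes around the pathway were read from 11 further lists, 7 of pathway genes and 4 of target genes, with 129 distinct genes passing the filter on mean FPKM. Of these, 4 were at least 2-fold higher and 6 at least 2-fold lower, which is 3.10% and 4.65%, beside 5.19% and 2.04% of all genes. Their median log2 ratio was 0.02. These lists too were chosen with earlier results of these data known.

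Among genes of citrate export and NADPH supply, 1 of 15 was at least 2-fold higher and 0 lower (median 0.04). That gene was G6pdx, glucose-6-phosphate dehydrogenase, which opens the oxidative pentose phosphate pathway, at 13.6 FPKM with ClpP siRNA and 3.38 FPKM with GFP siRNA (log2 ratio 1.74). Me2, a mitochondrial malic enzyme, followed in size with 2.50 FPKM with ClpP siRNA and 5.48 FPKM with GFP siRNA (log2 ratio -0.89). Partners of the carboxylases and the synthase, with genes of malonyl-CoA turnover and acyl-CoA synthesis, had 0 of 11 past 2-fold in either direction (median -0.09). After Mid1ip1 the largest value in size was that of Hlcs, the ligase that puts biotin on the carboxylases, with 3.44 FPKM with ClpP siRNA and 6.01 FPKM with GFP siRNA (log2 ratio -0.66).

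The desaturases and elongases, which modify fatty acids, had 4 of 13 at least 2-fold lower and 0 higher, with a median of -0.60. Scd1, the stearoyl-CoA desaturase of liver, had 28.8 FPKM with ClpP siRNA and 91.0 FPKM with GFP siRNA (log2 ratio -1.63). Scd2 (-1.55), Elovl7 (-1.07) and Fads1 (-1.03) were the other 3, and with a pseudocount of 5 each of these was short of 2-fold. The remaining genes of glycerolipid assembly had 0 of 16 past 2-fold (median 0.23), with Gpd1, the cytosolic glycerol-3-phosphate dehydrogenase, at -0.88 and Tm6sf2 at 0.78.

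Upstream of the pathway, 0 of 28 regulators, 0 of 16 insulin signalling genes and 0 of 8 AMPK genes were past 2-fold. Over all genes, 5.19% were higher and 2.04% lower by this rule. The list medians were 0.04, 0.06 and 0.05. The AMPK genes are its subunits with Stk11 and Cab39, which are not subunits. The largest values in size among regulators were those of Insig1 (-0.65), which holds SREBP in the endoplasmic reticulum and is itself an SREBP target, and of Thra (0.62), a thyroid hormone receptor. Insulin signalling was led by Irs2 (-0.48), an insulin receptor substrate, and Tsc1 (0.46), an inhibitor of mTORC1. Of the AMPK subunits, whose kinase inhibits the carboxylases, Prkab2 (-0.80) and Prkag2 (-0.73) had the largest values in size.

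Target genes differed in both directions. The target lists leave out the members, and some of their genes, such as Scd1 and Insig1, are also in the pathway lists above. Among SREBP-1c and insulin responsive targets, 1 of 10 (Scd1) was at least 2-fold lower and 0 higher, with a median of -0.52. Among ChREBP and glucose responsive targets, 2 of 11 were at least 2-fold higher and 2 lower, with a median of -0.06. Txnip and Arrdc4, arrestin-domain genes of the glucose response, were the higher pair. Txnip had 20.6 FPKM with ClpP siRNA and 4.93 FPKM with GFP siRNA (log2 ratio 1.86), and Arrdc4 had 13.1 FPKM with ClpP siRNA and 3.33 FPKM with GFP siRNA (log2 ratio 1.70). Of the lower pair, Gckr had 0.549 FPKM with ClpP siRNA and 2.70 FPKM with GFP siRNA (log2 ratio -1.26). LXR targets had 0 of 6 past 2-fold (median 0.26), led by the sterol transporter genes Abcg8 (0.55) and Abcg5 (0.29).

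Thyroid hormone targets other than the members had 1 of 6 at least 2-fold higher and 0 lower, with a median of 0.14. Hr, which encodes a corepressor of the thyroid hormone receptor, had 8.66 FPKM with ClpP siRNA and 2.69 FPKM with GFP siRNA (log2 ratio 1.39, and 0.83 with a pseudocount of 5). Klf9, a transcription factor, had 5.07 FPKM with ClpP siRNA and 9.37 FPKM with GFP siRNA (log2 ratio -0.77).

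**Figure D4:**
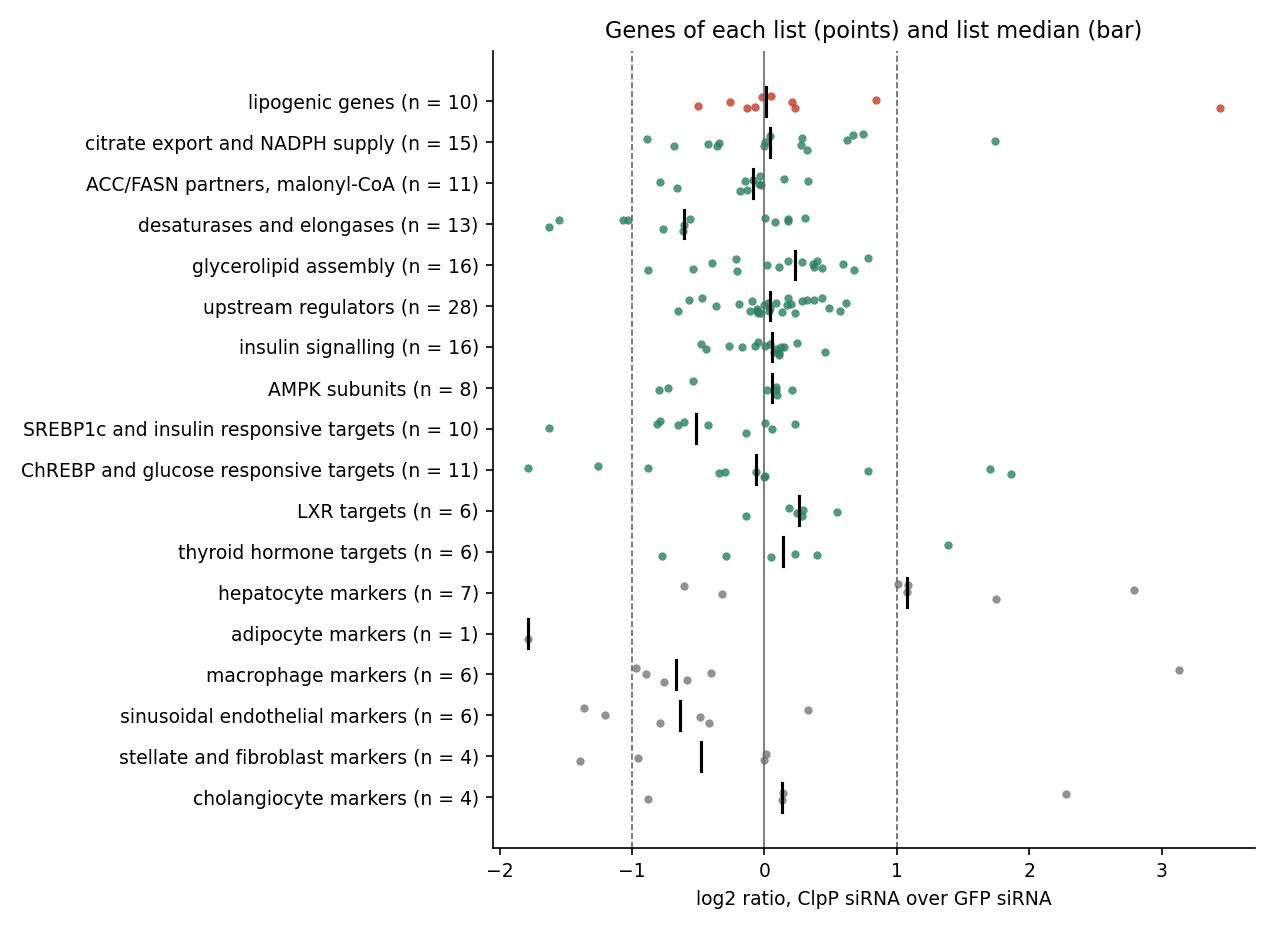
Log2 ratio (ClpP siRNA over GFP siRNA) of each gene with a mean FPKM of at least 1, by list: lipogenic genes in red, pathway and target lists in green, cell type markers in grey, with a bar at each list median, the number of genes in brackets and dashed lines at 2-fold. Desaturases and elongases have a median of -0.60, the lipogenic genes one of 0.02, and the hepatocyte markers one of 1.08.

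Clpp, the targeted gene, had 9.32 FPKM with ClpP siRNA and 45.1 FPKM with GFP siRNA (log2 ratio -2.16). The libraries also differed in cell type markers. All 7 hepatocyte markers passed the filter and 5 were at least 2-fold higher (Cps1 2.79, Apoa1 1.75, Alb 1.08, Ttr 1.08 and Tat 1.01), with Apob at -0.32 and Asgr1 at -0.61; 3 were past 2-fold after quantile normalization. Their summed FPKM was 7133 with ClpP siRNA, against 3308 with GFP siRNA. Alb alone had 6245 FPKM with ClpP siRNA and 2952 FPKM with GFP siRNA, most of each sum. The 10 interferon response genes, a list chosen with earlier results of these data known, were all at least 2-fold higher, beside 5.19% of all genes. Together they had 4665 FPKM with ClpP siRNA and 304.2 FPKM with GFP siRNA. The part of either difference in the value of Thrsp was not tested.

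Markers of other cells were mostly low. Of 9 adipocyte markers, which matter here because fat cells share this pathway, 6 were not among the named genes and could not be read. The other 3 summed to 1.21 FPKM with ClpP siRNA and 4.83 FPKM with GFP siRNA, and Fabp4 alone passed the filter, at -1.78. Of 6 macrophage markers passing the filter 1 was at least 2-fold higher, Cd68 (3.14), a lysosomal protein, while Lyz2 had -0.97. Of 6 sinusoidal endothelial markers 2 were lower, Pecam1 (-1.36) and Cdh5 (-1.20). Of 4 stellate cell and fibroblast markers 1 was lower, Acta2 (-1.39), with Col3a1 at -0.95. Of 4 cholangiocyte markers 1 was higher, Krt19 (2.28), while Spp1 had -0.88. Summed FPKM in the ClpP siRNA and GFP siRNA libraries was 232.7 and 40.7 for macrophage markers, 16.3 and 29.2 for endothelial markers, 15.97 and 35.2 for stellate markers, and 937.1 and 1629 for cholangiocyte markers. In several of these lists a single gene made up most of the sum. Acta2 alone had 9.47 FPKM with ClpP siRNA and 26.5 FPKM with GFP siRNA of the stellate sums. Without Cd68 the other 9 macrophage markers summed to 6.45 FPKM with ClpP siRNA and 15.9 FPKM with GFP siRNA. Without Spp1 the other 4 cholangiocyte markers summed to 67.0 FPKM with ClpP siRNA and 24.8 FPKM with GFP siRNA.

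The genes closest to Thrsp in both levels were found by the distance between log2(FPKM + 1) values over the 2 libraries. They were Saa2, an acute phase protein (100.5 FPKM with ClpP siRNA and 6.84 FPKM with GFP siRNA, distance 0.21), Tnfrsf23 (distance 0.26), and Cmpk2 (0.34), Oas1g (0.36) and Trim30a (0.39), which are known as interferon-inducible genes. With 2 libraries, such likeness means no more than a similar pair of levels.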

How the data were processed

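Poly-A RNA from 2 libraries was analysed, 1 from hepatocytes given ClpP siRNA and 1 from hepatocytes given GFP siRNA, prepared with the Illumina TruSeq RNA kit v2 per the labels' protocols, a kit that does not mark strand. Per the file headers the authors deposited FPKM per gene. The submitters' processing notes name STAR 2.4.0f1, TopHat2 2.0.13, Bowtie2 2.2.3, Cufflinks 2.2.1, Trimmomatic 0.32 and FastQC 0.10.0 without a role or an order; the genome build is not given in the sources used here. The authors also deposited log2 columns, which equal quantile-normalized log2(FPKM + 1) to within 0.001, and a signed fold change between them, treated here as a score. The header of the ClpP siRNA column is an abbreviation read from its name alone. Depth is unknown from FPKM, so no counting interval is given. All 14339 named genes were above 0 in both libraries, so genes at 0 were not analysed here. Of the 14346 rows, 7 naming no gene were left out (0.0335% and 0.0475% of FPKM in the ClpP siRNA and GFP siRNA libraries).

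Log2 ratios were computed with Python 3.11.15, numpy 2.4.6 and pandas 2.3.3, with a pseudocount of 1 that understates the change of low genes. Genes with a mean FPKM of at least 1 were kept for counts. The 2-fold rule is one of size. The arithmetic of the log2 ratio was checked on simulated data, which says nothing of the spread between replicates. Promoter windows are from RefSeq (GRCm38.p6). List symbols were matched to the table by symbol, and 6 by NCBI gene ID. The members and lists were chosen with earlier results of these data known. Named are all members, Clpp, Mid1ip1, the 5 genes nearest Thrsp, and from each list every gene past 2-fold and the 2 of largest ratio in size; Apob and Asgr1 were added so that the hepatocyte list is complete, while a few genes chosen by it are not reported here. Alternatives were other pseudocounts, filters, scalings and a 1.5-fold rule.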

Additional observations from a re-analysis of the deposited data

How the results depend on the processing

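The counts, the median, Thrsp, the other members and the genes past 2-fold were recomputed under 10 alternatives, one choice at a time. Leaving out single-gene values under the 2 filters, which cannot move them, 603 of 665 values kept their side of 2-fold, stayed within 1.5 times for a count, or stayed within 0.1 for a median; 0 changed sign past 2-fold. Thrsp ranged from 2.93 to 3.60, and 0 members were at least 2-fold lower under each alternative. With a pseudocount of 0.1, 2 members were higher (Acacb joined Thrsp) and 357 of all genes were lower, against 226. With a pseudocount of 5, 327 of all genes were higher and 89 lower, and 2 pathway and target genes were lower, against 6. With a mean FPKM of at least 10, 300 of all genes were higher and 108 lower, and 1 pathway or target gene was higher and 2 lower; Fasn, Acaca and Acacb drop out there. With the 1.5-fold rule, 2 members were higher, 1105 of all genes were higher and 753 lower, and 11 pathway and target genes were higher and 19 lower. These moves follow from how each rule is built. No scaling moved the median of all genes by more than 0.1. No paired analysis was possible because each group holds 1 library, and leaving out a library was not possible for the same reason. Depth could not be read from FPKM, so precision at low levels, as for Acacb, is unknown.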

Other observations

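The protein-coding genes next to Thrsp on chromosome 7 were read by their order in RefSeq (GRCm38.p6), 3 on each side. This was chosen after the value of Thrsp was seen. Ndufc2, a complex I subunit and the nearest on one side, had 79.8 FPKM with ClpP siRNA and 89.0 FPKM with GFP siRNA (log2 ratio -0.15). Alg8 and Kctd21, further out on that side, had log2 ratios of 0.13 and 0.47. On the other side Kctd14 was below the filter on mean FPKM (0.0498 FPKM with ClpP siRNA and 0.0475 FPKM with GFP siRNA), and Ints4 and Aamdc had log2 ratios of 0.19 and 0.28. None of the neighbours passing the filter was past 2-fold. Over all genes passing it, 5.19% were at least 2-fold higher and 2.04% at least 2-fold lower. Whether the region bears on the value of Thrsp was not tested.

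The levels of 2 further responsive genes of adult liver stood far apart, both named after their values were seen. Pnpla3, a lipid droplet protein, had 0.108 FPKM with ClpP siRNA and 0.251 FPKM with GFP siRNA. Pklr, the pyruvate kinase of liver, had 127.2 FPKM with ClpP siRNA and 156.6 FPKM with GFP siRNA.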
